A study of Mus musculus with 8 samples.

Results

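Vitamin D, the steroid hormones and thyroid hormone act through nuclear receptors, and 9 genes of these pathways were read from the deposited count table by gene symbol, out of 54532 genes in all. They are 7 receptors (Vdr, Rxra, Thra, Thrb, Nr3c1, Nr3c2 and Esr1) and 2 enzymes of vitamin D metabolism (Cyp27b1 and Cyp24a1), and all 9 symbols were found. Their mRNA was compared between enamel organs of first molars from wt C57BL/6 pups at P5, the secretory stage, and at P12, the maturation stage, and animals of neither age were treated. Each RNA-seq library was made from polyadenylated RNA of a pool of 5 pups, with 4 libraries at P5 (numbered 1, 3, 4 and 5) and 4 at P12 (numbered 1 to 4), so that n = 4 pools at each age throughout. Soft tissue was removed from the pulp chamber and the remaining molar was extracted, so that the libraries hold more than the ameloblast layer.

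A nuclear receptor is a transcription factor that is switched by a small lipophilic ligand. The vitamin D receptor Vdr and the thyroid hormone receptors Thra and Thrb bind DNA mainly as a pair with a retinoid X receptor such as Rxra, while the glucocorticoid receptor Nr3c1, the mineralocorticoid receptor Nr3c2 and the oestrogen receptor Esr1 bind mainly as pairs of like receptors. Local enzymes set how much active ligand a cell sees, and lack of vitamin D or of thyroid hormone is known to disturb the mineralization or eruption of teeth.

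Total counts ranged from 16574548 to 20262601 in the P5 libraries and from 17588152 to 22013456 in the P12 libraries. Counts were divided by edgeR's effective library size (TMM) and multiplied by the mean of these sizes (normalized counts), which are levels per library and not per length. The quasi-likelihood test of edgeR was run on 16440 genes that passed its filter on low counts, p-values were adjusted over all of them (Benjamini-Hochberg) and called under 0.05. Of all genes, 57.2% were called, 28.8% higher and 28.4% lower at P12. Over all genes the log2 fold change had a median of 0.01, and scaling by total count alone moved it to 0.38 and the calls to 8885 higher and 2330 lower. The 20 most abundant genes took 34.1% to 35.7% of the counts at P5 and 16.8% to 19.0% at P12. The 4 listed markers of secretory ameloblasts (Amelx, Ambn, Enam and Mmp20) all fell and the 5 of maturation ameloblasts (Klk4, Amtn, Odam, Slc24a4 and Wdr72) all rose, as the stage labels have it.

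The markers of other cells also moved with age. All 5 oral epithelial keratin and cornification genes rose (summed normalized count 483 to 906 at P5 and 3360 to 32247 at P12), as did 5 of 6 genes of leukocytes and osteoclasts (1781 to 2569 and 4266 to 9309), all 4 of endothelium (2107 to 2532 and 4061 to 4324) and 3 of 4 of nerve and Schwann cells (500 to 732 and 971 to 1392). The 4 genes of skeletal muscle fell (585 to 1012 and 305 to 386), and of 9 genes of mesenchyme, odontoblasts and bone 3 rose and 2 fell (1040050 to 1239384 and 912967 to 1181775). The part of these cells in the changes described here was not tested, and in bulk RNA fewer cells of a type and less RNA per cell cannot be told apart. Libraries that stood apart were P5 library 5, with the lowest sum of maturation markers among the P5 libraries (12880, against 36789 to 44228), and P12 library 4, with the highest sum of secretory markers among the P12 libraries (621683, against 237041 to 433633). Without both of them, the same number of the 9 genes rose and fell as with them. Over all 16667 genes tested without these libraries, 4921 were called higher and 4855 lower.

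Of the 9 genes, 8 had enough counts to be tested. At P12, 5 were higher (Thrb, Esr1, Vdr, Nr3c1 and Nr3c2), 2 were lower (Rxra and Thra), Cyp27b1 did not pass the threshold and Cyp24a1 was at or under the floor of 3 counts in every library. Of all genes tested, 28.8% were called higher and 28.4% lower. The median log2 fold change of the 8 was 0.74, beside 0.01 for all genes tested. In 6 of the 8, the P5 and P12 libraries did not overlap: every P12 library was above every P5 library in 4, which held for 26.0% of all genes tested, and below in 2, which held for 26.6%.

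**Figure D1:**
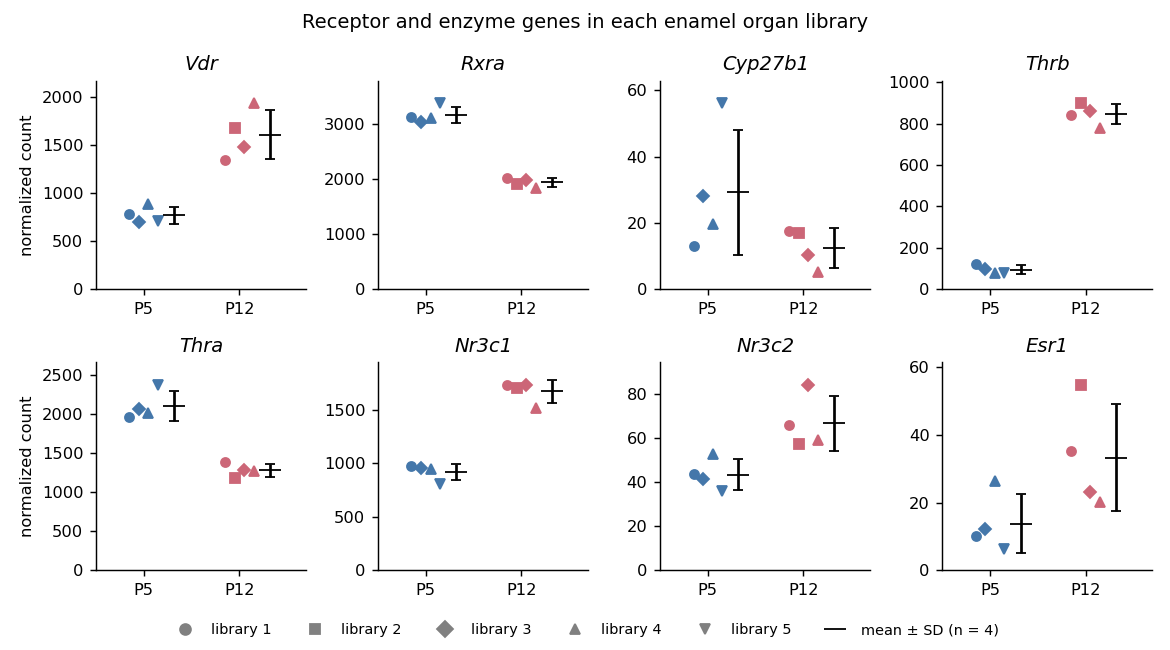
Normalized count (vertical axes, linear, from 0) of each of the 8 tested genes in the 4 P5 (blue) and 4 P12 (red) libraries, with bars for the mean and SD of each age; points are single libraries, their shape gives the library number, and the same number at both ages does not mark the same animals. Vdr, Thrb, Nr3c1 and Nr3c2 have all P12 points above all P5 points, Rxra and Thra have them below, and Esr1 and Cyp27b1 overlap.

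The promoters of Vdr and Thrb are shown, since these are the vitamin D and thyroid hormone receptor genes that rose and their starts can be looked at for the letters that receptors of these families bind. RefSeq lists 9 promoters for 6 of the 9 genes on GRCm38.p6, each from 250 bases before to 50 bases after a transcription start, and Cyp24a1, Nr3c1 and Thra are without an entry. They were searched on both strands for AGGTCA, which reads TGACCT on the other strand, the half-site shared by the vitamin D, thyroid and retinoid receptors, and for AGAACA, which reads TGTTCT on the other strand, the half-site of the glucocorticoid receptor; the motifs do not overlap each other. Capitals mark a match, and each sequence is written 5′ to 3′ on the strand of the gene. The Vdr window is chr15:97908247-97908546 on the reverse strand, and the Thrb windows are chr14:17660710-17661009 and chr14:17981394-17981693 on the forward strand.
Vdr: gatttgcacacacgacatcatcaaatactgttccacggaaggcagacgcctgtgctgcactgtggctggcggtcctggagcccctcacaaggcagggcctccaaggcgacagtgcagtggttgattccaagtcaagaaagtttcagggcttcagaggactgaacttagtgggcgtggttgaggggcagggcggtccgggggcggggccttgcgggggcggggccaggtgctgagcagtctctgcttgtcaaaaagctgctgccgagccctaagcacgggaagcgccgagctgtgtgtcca
Thrb, first start: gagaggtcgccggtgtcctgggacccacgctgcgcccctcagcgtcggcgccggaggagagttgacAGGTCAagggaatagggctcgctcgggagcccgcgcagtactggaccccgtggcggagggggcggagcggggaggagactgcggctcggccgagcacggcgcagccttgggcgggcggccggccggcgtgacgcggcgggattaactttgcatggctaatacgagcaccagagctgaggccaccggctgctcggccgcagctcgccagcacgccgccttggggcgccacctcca
Thrb, second start: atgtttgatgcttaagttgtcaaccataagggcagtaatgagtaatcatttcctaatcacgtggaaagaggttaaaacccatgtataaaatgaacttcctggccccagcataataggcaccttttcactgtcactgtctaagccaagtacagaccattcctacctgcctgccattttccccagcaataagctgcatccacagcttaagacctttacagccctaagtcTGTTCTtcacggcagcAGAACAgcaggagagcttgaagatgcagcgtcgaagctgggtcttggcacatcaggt
The Vdr window holds neither motif. The first Thrb window holds AGGTCA 184 bases before the start, and the second holds TGTTCT 23 bases and AGAACA 7 bases before the start. Of the 9 promoters, 2 held the first motif (this Thrb window and 1 of the windows of Rxra) and 1 held the second, while among all 32851 RefSeq promoters of this length 16.3% held the first and 19.0% held the second. A match of 6 letters is a description of the sequence and not a binding site.

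Vitamin D signalling was described from receptor to enzymes and targets. Vdr, the receptor of 1,25-dihydroxyvitamin D (ENSMUSG00000022479, chromosome 15 of GRCm38, 97854425 to 97910630, reverse strand), had normalized counts of 780, 701, 891 and 708 in P5 libraries 1, 3, 4 and 5 and of 1342, 1683, 1480 and 1938 in P12 libraries 1 to 4. The lowest P12 library stood well above the highest P5 library, and P12 library 4 was the highest of all. The mean rose 2.09-fold, from 770 ± 88.3 to 1611 ± 259 (SD, n = 4), a log2 change of 1.06 (SE 0.12, edgeR adjusted p = 1.6e-05). Without P5 library 5 and P12 library 4 it was 0.93.

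Rxra, the retinoid X receptor that pairs with Vdr and with the thyroid receptors (ENSMUSG00000015846, chromosome 2, 27676440 to 27762957, forward strand), went the other way. At P5 it had 3119, 3032, 3103 and 3372 normalized counts, and at P12 it had 2009, 1908, 1986 and 1840, so that the groups were far apart and the spread within each was small. The mean fell from 3156 ± 149 to 1936 ± 76.9 (SD, n = 4), a log2 change of -0.71 (SE 0.06, edgeR adjusted p = 2e-06). Under total count scaling this was -0.33 (edgeR adjusted p = 0.0012). Of the 6 retinoid receptor genes 3 fell (Rxra, Rxrg and Rara), none rose and 3 did not pass, with a median log2 fold change of -0.48. Rxrb, which is expressed in most tissues, was at 1248 ± 85.2 and 1148 ± 49.6 (log2 fold change -0.12, edgeR adjusted p = 0.14), and its sign turned to 0.25 under total count scaling. Rxrg was low, at 16.4 ± 2.83 and 6.00 ± 1.61 (log2 fold change -1.45, edgeR adjusted p = 0.0028), and Rara, a retinoic acid receptor, fell from 1196 ± 240 to 598 ± 71.4 (log2 fold change -1.0, edgeR adjusted p = 7e-05).

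Because a ratio of genes within a library does not depend on how libraries are scaled, Vdr was also set against Rxra in each library. The log2 ratio of Vdr to Rxra, with a pseudocount of 1, was -2.0, -2.11, -1.80 and -2.25 in the P5 libraries and -0.58, -0.18, -0.42 and 0.07 in the P12 libraries. All P12 ratios lay above all P5 ratios, and the highest was that of P12 library 4. The difference of 1.76 between the mean ratios had an exact permutation p of 0.0286 (two-sided), the smallest that 4 against 4 can give, and 0.0714 after Benjamini-Hochberg adjustment over 5 ratios, which does not pass 0.05.

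Cyp27b1, the 1-alpha-hydroxylase that makes the active hormone (ENSMUSG00000006724, chromosome 10, 127048250 to 127053006, forward strand), was near the limit of detection. It had 10, 25, 15 and 53 raw counts at P5 and 24, 20, 11 and 5 at P12. The values of both ages overlapped, P5 library 5 was the highest and P12 library 4 the lowest. The means were 29.2 ± 19.0 and 12.4 ± 5.95 normalized counts (log2 fold change -1.22, SE 0.49, edgeR adjusted p = 0.051). DESeq2 called it lower (adjusted p = 0.039), while without P5 library 5 and P12 library 4 the log2 fold change was -0.44 (edgeR adjusted p = 0.37).

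Cyp24a1, the 24-hydroxylase that inactivates vitamin D metabolites and one of the best known targets of Vdr (ENSMUSG00000038567, chromosome 2, 170482708 to 170497145, reverse strand), had 0 counts in 7 libraries and 2 counts in P12 library 2. All 8 libraries were thus at or under the floor of 3 counts, which is 0.136 to 0.181 CPM here, and no fold is given. Any level below that was not detectable at this depth. The log2 ratio of Cyp24a1 to Cyp27b1 was -4.71 ± 0.86 and -3.26 ± 0.75 (SD, n = 4), a difference of 1.46 (two-sided exact permutation p = 0.0571, adjusted p = 0.0714) that was set by Cyp27b1 and the pseudocount.

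Among 8 genes of vitamin D supply, 6 were tested, of which 2 rose, 2 fell and 2 did not pass (median log2 fold change -0.08). Dab2, an adaptor of the endocytic uptake of the vitamin D carrier, rose from 401 ± 30.1 to 1011 ± 176 (log2 fold change 1.34, edgeR adjusted p = 3.1e-06). Lrp2 and Gc, the uptake receptor and the carrier itself, were too low to be tested. Cyp27a1, a 25-hydroxylase, fell from 281 ± 21.1 to 203 ± 33.7 (log2 fold change -0.47, edgeR adjusted p = 0.0075), and under total count scaling this was -0.10 and did not pass (adjusted p = 0.46), nor did it pass with the replicate number as a block (0.060). Cyp2r1, the main 25-hydroxylase, was at 12.9 ± 2.81 and 22.4 ± 5.91 with overlapping ages. Its call (edgeR adjusted p = 0.046) was lost in 12 of 16 alternatives, which include the main fit read at a threshold of 0.01. Pdia3, a protein disulfide isomerase that has been described as a membrane receptor of vitamin D, was at 9509 ± 684 and 8363 ± 276, and its log2 fold change of -0.19 became 0.19 under total count scaling.

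Genes listed as targets of Vdr moved in both directions. Of 16 listed, 13 were tested, and 7 rose, 2 fell and 4 did not pass, with a median log2 fold change of 0.35. Whether Vdr raises or lowers each of them in mouse was not taken into account. S100g, the small calcium-binding calbindin of intestine, was at 30.9, 20.1, 14.5 and 16.9 at P5 and 73.3, 68.3, 64.9 and 57.2 at P12, a log2 fold change of 1.68 (SE 0.25, edgeR adjusted p = 0.00016) with no overlap. Calb1, the large calbindin, was abundant and did not pass: its P5 libraries lay between 28824 and 36295, and its P12 libraries at 12081, 15287, 23468 and 47635. P12 library 4 alone was above the P5 range, the log2 fold change was -0.45 (edgeR adjusted p = 0.28), and without that library it was -1.0 (edgeR adjusted p = 0.00035). Trpv6, an epithelial calcium channel, was at 95.5 ± 16.5 and 69.1 ± 10.9 (edgeR adjusted p = 0.051) and was called lower in 4 of 17 alternatives, DESeq2 among them. Atp2b1, a plasma membrane calcium pump, fell from 13829 ± 1230 to 7077 ± 592 (log2 fold change -0.97, edgeR adjusted p = 3.9e-06). Among the listed genes with a mean normalized count of at least 50, the largest rises were in Klk4, the enamel protease that is also one of the maturation markers (log2 fold change 3.22, edgeR adjusted p = 4.9e-05), and Spp1, which encodes osteopontin (log2 fold change 2.16, edgeR adjusted p = 0.00019). Spp1 was at 3277, 4429, 2157 and 1408 in P12 libraries 1 to 4, in the order of their sums of leukocyte and osteoclast markers (7718, 9309, 6141 and 4266). The sums of oral epithelial markers (26573, 32247, 20205 and 3360) had the same order. The part of these cells in the rise of Spp1 was not tested. This order of P12 libraries was not particular to Spp1: Mt1, Cyp2r1 and Dio3 had it too, and Dio3 fell.

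The thyroid hormone receptors changed in opposite directions, and Thrb changed most of the 9 genes. Thrb (ENSMUSG00000021779, chromosome 14, 17660261 to 18038090, forward strand) had normalized counts of 122, 97.3, 79.1 and 76.2 at P5 and 841, 898, 860 and 780 at P12. All P12 libraries were within a narrow range that lay several times above the P5 range. The mean rose 9.02-fold, from 93.7 ± 21.1 to 845 ± 49.1 (SD, n = 4), a log2 change of 3.18 (SE 0.13, edgeR adjusted p = 7.8e-09), and without P5 library 5 and P12 library 4 it was 3.12. This was the highest log2 fold change among the 35 nuclear receptor genes of the list that were tested, of 48 listed.

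Thra (ENSMUSG00000058756, chromosome 11, 98740638 to 98769006, forward strand) had 1962, 2064, 2023 and 2379 normalized counts at P5 and 1392, 1184, 1284 and 1275 at P12. No P12 library came near the P5 range. The mean fell from 2107 ± 186 to 1284 ± 85.0 (SD, n = 4), a log2 change of -0.72 (SE 0.08, edgeR adjusted p = 1.2e-05). Under total count scaling this was -0.34 (edgeR adjusted p = 0.0035). Of the exonic bases of Thra, 5.70% lie in exons of Nr1d1 on the other strand, a circadian receptor gene that rose from 168 ± 24.5 to 522 ± 36.4 (log2 fold change 1.64). Whether the counting used strand is not given in the sources used here, so reads of the shared stretch cannot be told apart. Thra is not the only gene named here that shares exonic bases with another gene. The share was larger in Ctsd (34.4%), Cdkn1c (30.7%), Spp1 (18.75%) and Atp1b1 (18.7%), among others.

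The log2 ratio of Thrb to Thra was -3.99, -4.39, -4.66 and -4.95 in the P5 libraries and -0.73, -0.40, -0.58 and -0.71 in the P12 libraries. Per kilobase of gene length, the normalized count of Thra was 457 ± 40.4 and that of Thrb 12.7 ± 2.86 at P5, and they were 278 ± 18.4 and 114 ± 6.63 at P12 (SD, n = 4). The difference between the ages was 3.90 on the log2 scale (two-sided exact permutation p = 0.0286, adjusted p = 0.0714 over 5 ratios).

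**Figure D2:**
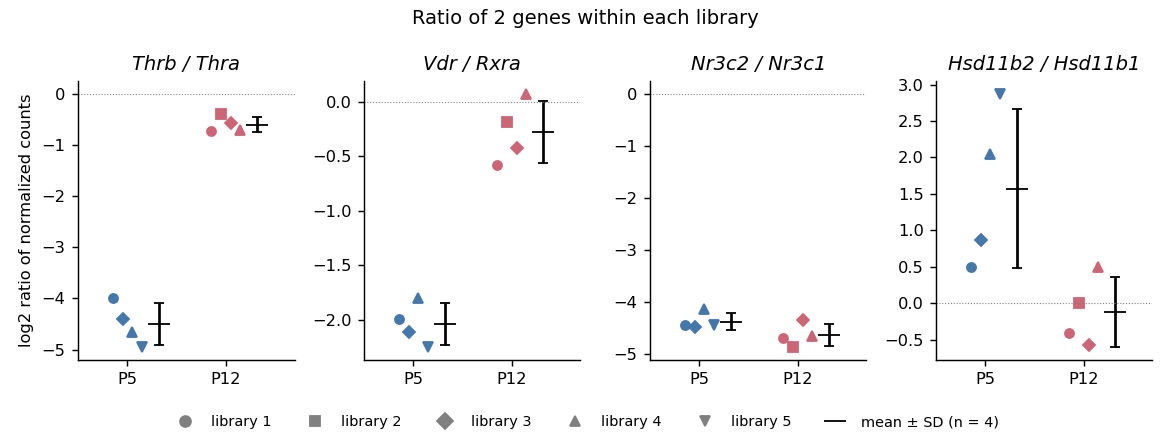
Log2 ratio of 4 gene pairs within each library, with a pseudocount of 1 (vertical axis), by age; points are single libraries, with blue for P5, red for P12 and the shape for the library number, and bars show the mean and SD of 4. The ratio of Thrb to Thra runs from -4.95 to -3.99 at P5 and from -0.73 to -0.40 at P12, the ratio of Vdr to Rxra lies higher at P12 in every library, and the ratios of Nr3c2 to Nr3c1 and of Hsd11b2 to Hsd11b1 overlap between the ages.

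Of 9 genes that supply thyroid hormone to cells, 8 were tested, and 2 rose, 4 fell and 2 did not pass (median log2 fold change -0.74). Dio2, the deiodinase that makes the active hormone, had 378, 378, 397 and 287 normalized counts at P5 and 2348, 4659, 3062 and 4548 at P12. Every P12 library was several times above every P5 library, with a log2 fold change of 3.35 (SE 0.22, edgeR adjusted p = 2.5e-07). Dio3, the deiodinase that inactivates the hormone, was at 143, 136, 148 and 167 at P5 and at 92.4, 105, 78.8 and 62.2 at P12. It fell by 0.80 on the log2 scale (SE 0.17, edgeR adjusted p = 0.002), and under total count scaling this was -0.43 and did not pass. Dio1, the deiodinase of liver and kidney, was too low to be tested. The transporter Slc7a8 rose (log2 fold change 1.85, edgeR adjusted p = 2.8e-08), and Slc7a5 fell (-0.68, edgeR adjusted p = 0.0033), which under total count scaling was -0.31 and did not pass (adjusted p = 0.067). The largest falls on this list were in genes with low counts. Crym fell from 54.4 ± 16.0 to 6.33 ± 2.98 (log2 fold change -3.09, edgeR adjusted p = 2.9e-05). Slco1c1 fell from 25.2 ± 6.84 to 5.90 ± 5.50 (log2 fold change -2.16, edgeR adjusted p = 0.0056).

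Of 10 textbook targets of the thyroid receptors, 8 were tested, and 5 rose, 1 fell and 2 did not pass (median log2 fold change 0.74). Klf9, a zinc finger factor that also stands on the glucocorticoid list, was at 314, 333, 336 and 200 at P5 and at 1302, 1394, 1328 and 1420 at P12. Its log2 fold change was 2.21 (SE 0.14, edgeR adjusted p = 1.7e-07), and P5 library 5 was the lowest by far. Hr, which encodes a corepressor that binds thyroid receptors, rose from 1302 ± 98.7 to 2697 ± 261 (log2 fold change 1.05, edgeR adjusted p = 1e-06). Bcl3, a nuclear partner of NF-kappa-B, rose from 17.3 ± 6.55 to 269 ± 59.6 (log2 fold change 3.98, edgeR adjusted p = 1.8e-07). Nrgn, a calmodulin-binding protein best known from neurons, fell (log2 fold change -1.21, edgeR adjusted p = 0.0016).

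The glucocorticoid receptor Nr3c1 (ENSMUSG00000024431, chromosome 18, 39410545 to 39491301, reverse strand) had normalized counts of 976, 953, 945 and 808 at P5 and 1729, 1704, 1731 and 1511 at P12. In both ages the library that stood apart was the lowest (P5 library 5 and P12 library 4), and the ages did not overlap. The mean rose 1.81-fold, from 920 ± 76.2 to 1669 ± 106 (SD, n = 4), a log2 change of 0.86 (SE 0.08, edgeR adjusted p = 2.8e-06), or 0.84 without these libraries. The mineralocorticoid receptor Nr3c2 (ENSMUSG00000031618, chromosome 8, 76899442 to 77245012, forward strand) was at 43.7, 41.4, 52.7 and 36.0 at P5 and 66.0, 57.4, 84.3 and 59.2 at P12. Its ages did not overlap, but the gap between P5 library 4 and P12 library 2 was small. The log2 fold change was 0.62 (SE 0.21, edgeR adjusted p = 0.023), and the call was lost without P12 library 3 (adjusted p = 0.078), P5 library 3 (0.058) or P5 library 5 (0.065). The log2 ratio of Nr3c2 to Nr3c1 was -4.38 ± 0.16 and -4.64 ± 0.22 (SD, n = 4), a difference of -0.26 that did not pass (two-sided exact permutation p = 0.114, also after adjustment).

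Among the enzymes and chaperones around these receptors, 9 of 10 were tested, and 6 rose, 1 fell and 2 did not pass (median log2 fold change 0.25). Hsd11b2, which inactivates glucocorticoids and so shields Nr3c2, was at 16.7, 21.2, 25 and 52.9 at P5 and at 5.87, 8.44, 2.78 and 16.1 at P12. The ages were separated only by the step from P12 library 4 to P5 library 1, and the log2 fold change was -1.84 (SE 0.51, edgeR adjusted p = 0.009). The call was lost in the 6 libraries with a number found at both ages, without the block (adjusted p = 0.065). Hsd11b1, the enzyme that regenerates glucocorticoids, was too low to be tested, and the log2 ratio of Hsd11b2 to Hsd11b1 was 1.57 ± 1.09 at P5 and -0.12 ± 0.48 at P12 (two-sided exact permutation p = 0.0571, adjusted p = 0.0714). Of the chaperones, Hsp90aa1 rose from 2719 ± 215 to 3977 ± 204 (log2 fold change 0.55, edgeR adjusted p = 6e-05). Fkbp5, an immunophilin of the receptor complex and a textbook glucocorticoid target, rose from 234 ± 49.4 to 496 ± 85.8 (log2 fold change 1.08, edgeR adjusted p = 0.00017).

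Of 15 textbook glucocorticoid targets, 14 were tested, and 8 rose, 2 fell and 4 did not pass, with a median log2 fold change of 0.98 beside 0.01 for all genes. Mt1, a metallothionein, was at 225, 173, 214 and 130 at P5 and at 4560, 4699, 4524 and 2972 at P12, a log2 fold change of 4.51 (SE 0.19, edgeR adjusted p = 1.2e-08). Tsc22d3, which encodes the glucocorticoid-induced leucine zipper, was at 622, 568, 587 and 586 at P5 and at 2130, 2666, 2631 and 2717 at P12, a log2 fold change of 2.10 (SE 0.08, edgeR adjusted p = 7.1e-09). Sgk1, a kinase induced by both glucocorticoids and aldosterone, rose from 1305 ± 107 to 11679 ± 3398 (log2 fold change 3.16, SE 0.18, edgeR adjusted p = 9.9e-08). Cdkn1c, a cell cycle inhibitor, fell from 1103 ± 61.8 to 436 ± 60.1 (log2 fold change -1.34, edgeR adjusted p = 4.9e-07).

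Among 9 genes of aldosterone-responsive sodium transport, which include Sgk1 and Tsc22d3 again, 8 were tested, and 5 rose and 3 fell (median log2 fold change 0.84). The 3 subunits of the epithelial sodium channel did not move together. Scnn1a, the alpha subunit, was at 9.0, 13.4, 13.2 and 12.7 at P5 and at 68.9, 94.5, 36.1 and 14.1 at P12 (log2 fold change 2.14, SE 0.52, edgeR adjusted p = 0.0041), with P12 library 4 close to the P5 range. Scnn1b, the beta subunit, fell from 675 ± 61.4 to 228 ± 66.3 (log2 fold change -1.58, edgeR adjusted p = 1.2e-05), and Scnn1g, the gamma subunit, rose from 161 ± 19.7 to 337 ± 58.8 (log2 fold change 1.07, edgeR adjusted p = 6.4e-05). Scnn1a was also the subunit whose P12 libraries were ordered like their sums of oral epithelial markers, 26573, 32247, 20205 and 3360 in libraries 1 to 4. The sums of leukocyte and osteoclast markers (7718, 9309, 6141 and 4266) had the same order. The part of these cells in the change of Scnn1a was not tested. The P12 libraries of other genes, such as Mt1, Cyp2r1 and Dio3, were in this order as well, and Dio3 fell. Atp1b1, a subunit of the sodium pump, fell (log2 fold change -1.38, edgeR adjusted p = 0.0032).

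Esr1, the oestrogen receptor alpha (ENSMUSG00000019768, chromosome 10, 4611593 to 5005614, forward strand), was the lowest of the receptors. It had 8, 11, 20 and 6 raw counts at P5 and 48, 65, 25 and 20 at P12, or 10.3, 12.3, 26.4 and 6.35 against 35.2, 54.8, 23.2 and 20.1 normalized counts. P5 library 4 lay above P12 libraries 3 and 4, so that the ages overlapped. The P12 libraries were ordered like their sums of oral epithelial markers (26573, 32247, 20205 and 3360 in libraries 1 to 4). The sums of leukocyte and osteoclast markers (7718, 9309, 6141 and 4266) had this order too, as did other genes, Mt1 and Dio3 among them. The part of either set of cells in the result for Esr1 was not tested. The mean rose 2.41-fold, from 13.8 ± 8.72 to 33.3 ± 15.8 (SD, n = 4), a log2 change of 1.30 (SE 0.45, edgeR adjusted p = 0.029). The call was lost in 8 of 16 alternatives, among them those without P12 library 1 (adjusted p = 0.056), P12 library 2 (0.10), P5 library 1 (0.078), P5 library 3 (0.075) or P5 library 5 (0.085). These 8 include the main fit read at a threshold of 0.01.

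Pgr, the progesterone receptor and a textbook target of Esr1, was at 56.1 ± 17 and 61.0 ± 11 (log2 fold change 0.11, SE 0.24, edgeR adjusted p = 0.72), and its sign turned without P5 library 4. Esr2, the oestrogen receptor beta, was too low to be tested. Of 12 genes of oestrogen synthesis and response in the table, 7 were tested, and 4 rose, 2 fell and 1 did not pass (median log2 fold change 0.27). Greb1, a coactivator that oestrogen induces in breast cells, fell from 1841, 1574, 1623 and 1487 at P5 to 38.1, 58.2, 107 and 175 at P12 (log2 fold change -4.15, SE 0.33, edgeR adjusted p = 1.2e-06), while Igf1, a growth factor, and Ctsd, a lysosomal protease, rose (log2 fold changes 1.37 and 0.79, edgeR adjusted p = 5.7e-06 and 9.1e-07).

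**Figure D3:**
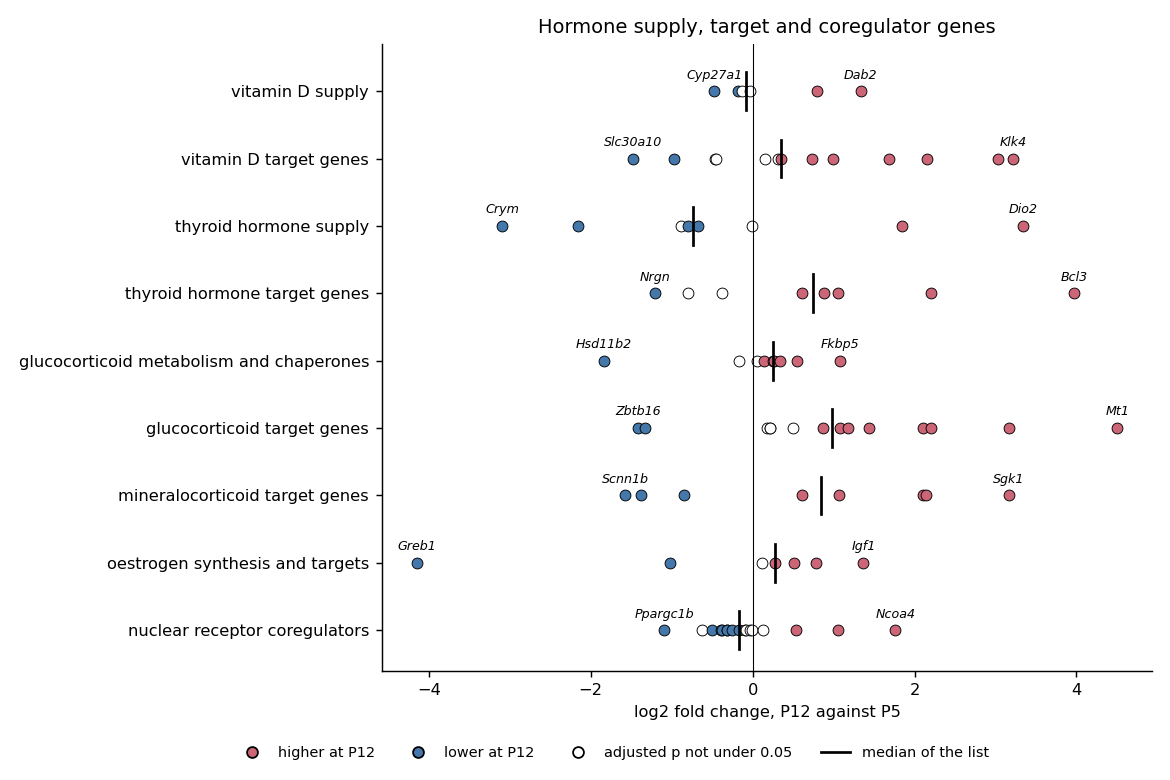
Log2 fold change of P12 against P5 from edgeR (horizontal axis) for the tested genes of 9 lists (rows, which leave out the receptor and marker lists); red points were higher and blue points lower at P12 at an adjusted p under 0.05, open points did not pass, names mark the genes with the largest called changes, and vertical ticks mark the median of each list. The glucocorticoid list has a median of 0.98, the thyroid target list 0.74 and the thyroid supply list -0.74, and the genes plotted range from Greb1 at -4.15 to Mt1 at 4.51.

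Coregulators are proteins through which these receptors act. Of 17 tested, 3 rose, 8 fell and 6 did not pass, with a median log2 fold change of -0.17. Among all genes tested, 28.8% were called higher and 28.4% lower. Ncoa4 rose (log2 fold change 1.76, edgeR adjusted p = 3.8e-07), and Ppargc1b, a coactivator of oxidative metabolism, fell (-1.09, edgeR adjusted p = 0.00013). Crebbp, an acetyltransferase, was at -0.51, and under total count scaling at -0.14 without a call (adjusted p = 0.18). The other 6 falls, between -0.39 (Hdac3) and -0.17 (Nsd1), were of about the size of the scaling shift or smaller, and under that scaling the corepressor Ncor1 and the coactivator Ncoa1 (both -0.32) were at 0.05.

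To order the genes by level, normalized counts were divided by the deposited gene length in kilobases, which was not done in the log2 ratios. At P5 the order was Rxra (578 ± 27.2), Thra (457 ± 40.4), Vdr (136 ± 15.6), Nr3c1 (124 ± 10.3), Thrb (12.7 ± 2.86), Cyp27b1 (11.3 ± 7.37), Nr3c2 (6.71 ± 1.08), Esr1 (1.01 ± 0.64) and Cyp24a1. Neighbours whose libraries overlapped at P5 were Vdr and Nr3c1, Thrb and Cyp27b1, and Cyp27b1 and Nr3c2. At P12 the order was Rxra (354 ± 14.1), Vdr (285 ± 45.8), Thra (278 ± 18.4), Nr3c1 (225 ± 14.3), Thrb (114 ± 6.63), Nr3c2 (10.3 ± 1.90), Cyp27b1 (4.83 ± 2.31), Esr1 (2.44 ± 1.15) and Cyp24a1. Vdr overlapped with both Rxra and Thra at P12, and Cyp27b1 with Esr1. The 4 abundant receptors at P5 were thus spread over a wider range than at P12, where Thrb had moved up towards them. Among the 35 tested nuclear receptor genes of the list, ordered per kilobase from the highest, Thrb moved from place 24 to 16 and Vdr from 12 to 7, while Thra moved from 4 to 8, Rxra from 3 to 4 and Nr3c1 from 13 to 9.

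**Figure D4:**
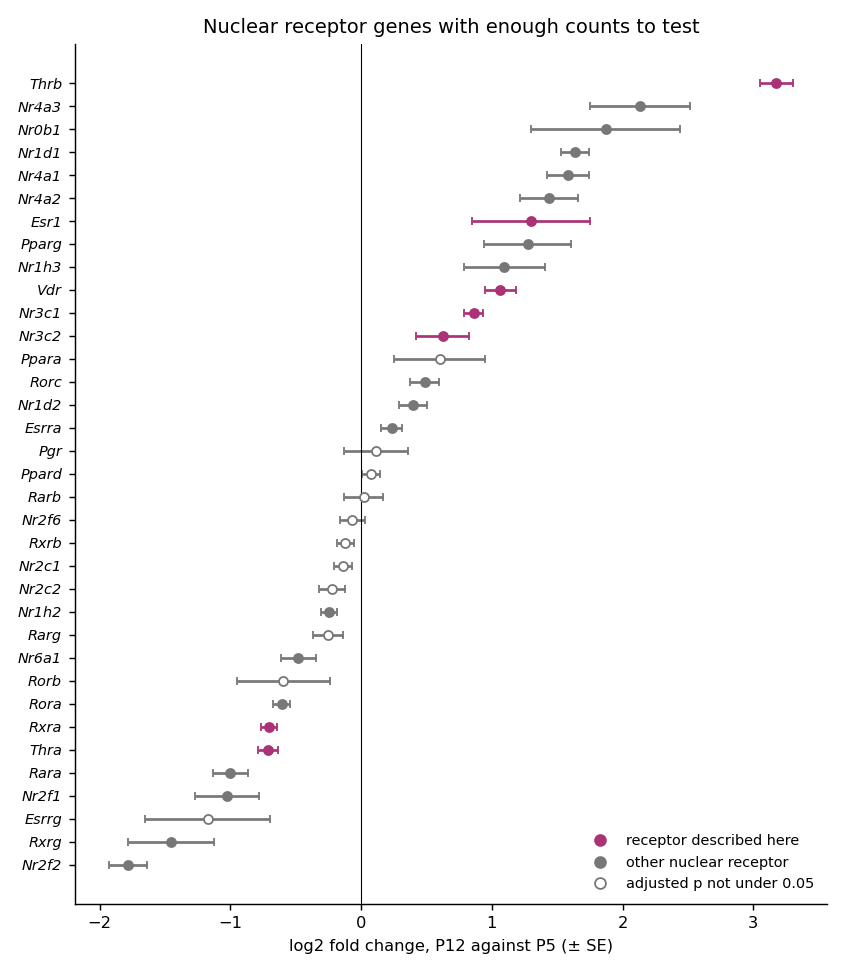
Log2 fold change of P12 against P5 from edgeR with its SE (horizontal axis) for the 35 listed nuclear receptor genes tested, ordered by value; filled points had an adjusted p under 0.05, and the 7 receptors described are coloured apart from the rest. Thrb stands at the top with 3.18 and Nr2f2 at the bottom with -1.79, and 15 genes rose, 9 fell and 11 did not pass.

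On the nuclear receptor list as a whole, 15 of the 35 tested genes rose, 9 fell and 11 did not pass, and the median log2 fold change was 0.08. Rises below that of Thrb included Nr4a3 (2.13), Nr0b1 (1.87), Nr1d1 (1.64) and Nr4a1 (1.58), and the largest falls were those of Nr2f2 (-1.79), Rxrg (-1.45), Nr2f1 (-1.03) and Rara (-1.0). The genes with the profile most like that of each receptor were found among 11057 protein-coding genes with a mean normalized count of at least 100, by the root-mean-square distance of centred log2 normalized counts over the 8 libraries. For Thrb they were P3h2 (0.12), Chn2 (0.15) and Slc2a12 (0.18), for Vdr Cbr2 (0.080), Wdr1 (0.097) and Iqgap1 (0.10), and for Nr3c1 Fnip2 (0.054), Lgals8 (0.058) and Wwp2 (0.062). For Rxra they were Csnk1e (0.035), 2700081O15Rik (0.043) and Proser2 (0.044), for Thra Tnrc18 (0.032), Txndc11 (0.038) and again 2700081O15Rik (0.041). Esr1 (nearest Plcg2, 0.35), Nr3c2 (nearest Ccdc58, 0.11) and Cyp27b1 (nearest Fcho1, 0.43) are the genes with low counts of their own.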

How the data were processed

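Enamel organs of first molars from P5 and P12 pups were compared by RNA-seq, with 4 libraries of 5 pooled pups at each age. The authors deposited whole-number read counts per gene without normalization, with gene lengths and coordinates that match GENCODE M21 for GRCm38 in most genes. The submitters' processing notes name CASAVA and mm39, and the aligner, the counting program and its use of strand are not given in the sources used here. Each column was matched to its library by title, and 0 columns were left out.

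Tests used edgeR 4.0.16 under R 4.3.3, with age as the only term (TMM, filterByExpr, glmQLFit and glmQLFTest), with Benjamini-Hochberg adjustment over all genes tested. SE is the log2 fold change over the square root of F. The paper's methods name DESeq2, which was run as an alternative (1.42.0). The other alternatives were DESeq2's size factors, total count scaling, no filter, at least 10 counts in every library, a threshold of 0.01, libraries left out, the replicate number as a block, and pseudocounts of 0.5 and 5 for ratios. Ratios were tested in scipy 1.17.1, with tables in pandas 2.3.3 and plots in matplotlib 3.10.9. The scripts were tested on simulated data. P-values measure the spread between pools only, and floors cover counting error only, since no molecular identifiers were used. No pair of libraries was a duplicate.

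The 9 genes, the gene lists and the alternatives were chosen with earlier results of these data known. Named beside the 9 genes are, from each of 20 lists, the 2 largest rises and 2 largest falls among called genes with a mean normalized count of at least 50, a fixed set of receptors, enzymes and targets, and the 3 most alike genes; names outside this rule were chosen after their values were seen. A few genes of the lists are not reported here, and counts over lists are without them.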

Additional observations from a re-analysis of the deposited data

Results flagged for a closer look

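Among the 4 libraries of an age, 1 library was far from the other 3 by Dixon's test at 13 of 152 groups of values looked at, where chance gives 7.6, and 6 of the 13 were in P5 library 5. Of the 9 genes, this touched Nr3c1, with a normalized count of 1511 in P12 library 4 against 1704 to 1731 in the others. The log2 ratio of Nr3c2 to Nr3c1 was -4.14 in P5 library 4 against -4.49 to -4.45 in the others. In P5 library 5 the normalized count was lower than in the other P5 libraries for Klf9 (200.05 against 314 to 336), Mylpf (146 against 206 to 211) and Krt76 (5.29 against 21.2 to 24.4), and higher for Rara (1553 against 1052 to 1120), Ppargc1b (264 against 174 to 184) and Dmp1 (2078 against 1444 to 1515). P12 library 4 had 2972 for Mt1 against 4524 to 4699, and P12 library 1 had 2130 for Tsc22d3 against 2631 to 2717. P5 library 1 had 9.0 for Scnn1a against 12.7 to 13.4. P5 library 4 had 325109 for Col1a2 against 363910 to 371203, and 3338 for Ctsd against 3139 to 3166.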

How the results depend on the processing

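Vdr, Rxra, Thra, Thrb and Nr3c1 kept their direction and their call in all 17 alternatives, with log2 fold changes without 1 library of 0.96 to 1.14, -0.73 to -0.68, -0.76 to -0.66, 3.08 to 3.32 and 0.80 to 0.90, and a highest adjusted p of 0.0035, for Thra under total count scaling. The sizes depended on the scaling. Under total count scaling they were 1.43 for Vdr, -0.33 for Rxra, -0.34 for Thra, 3.55 for Thrb and 1.24 for Nr3c1. The calls of Esr1 and Nr3c2 did not hold as well. Of the 8 genes tested, 3 rather than 5 were higher at an adjusted p under 0.01. The number was also 3 in the 6 libraries with a number found at both ages, with or without the replicate block. It was 3 to 5 when 1 library was left out (3 without P5 library 3 or P5 library 5). Calls over all genes changed too. Of 16440 genes, 4735 were higher in the main fit and 3713 at 0.01. In the 6 libraries, of 16399 genes, 4076 were higher without the block and 3867 with it. Without 1 library, 4309 to 4938 were higher. The log2 fold change was then 0.70 for Esr1 and 0.61 for Nr3c2 in the 6 libraries without the block and 0.72 and 0.60 with it, 1.30 and 0.62 at the stricter threshold, and 0.96 to 1.79 and 0.50 to 0.72 without 1 library. Cyp27b1 was called lower by DESeq2 (-1.23), with no filter (-1.19) and without P12 library 1 or P5 library 1, and lay between -1.46 and -0.68 without 1 library and at -0.44 without P5 library 5 and P12 library 4. Total count scaling gave 8885 genes higher and 2330 lower, and reversed Col1a2 (0.019), Ncoa1 (0.049), Ncor1 (0.051), Pdia3 (0.19) and Rxrb (0.25), and leaving out P5 library 4 reversed Pgr (-0.043, and up to 0.29 without 1 other library). The differences in log2 ratio were 3.75 to 4.06 for Thrb to Thra and 1.64 to 1.86 for Vdr to Rxra without 1 library, where an exact permutation test of 3 against 4 cannot pass 0.05. Without division by length, the P5 places were 4 for Vdr, 3 for Nr3c1, 7 for Cyp27b1 and 6 for Nr3c2, and the P12 places 3 for Vdr, 2 for Nr3c1, 4 for Thra, 7 for Esr1 and 8 for Cyp27b1. The cause of the other changes was not tested.

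The replicate numbers do not pair the libraries: same-numbered libraries correlated at 0.043, 0.0028 and -0.036 in their deviations from the age means over 16440 genes. With the replicate block 3867 genes were higher and 3843 lower, against 4076 and 4041 in the same 6 libraries without it. DESeq2 gave 4724 and 4673. Depth limits Cyp24a1 (0 to 2 counts), and Esr1, Cyp27b1 and Nr3c2, with 5 to 91 counts, have the widest errors of the 9 genes.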
